A study of Mus musculus with 18 samples.

Results

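The genes described here are 10 secreted signals that natural killer (NK) cells are known to make: the cytokines Ifng, Il10, Csf1, Csf2 and Flt3l and the chemokines Ccl1, Ccl3, Ccl4, Ccl5 and Xcl1. They were chosen by name, and each symbol matched 1 of the 56953 gene identifiers of the count table. The RNA came from spleen NK cells grown for 7 days with 1700 U/ml of human IL-2 at 1% oxygen. Hypoxia was common to all 18 libraries, so no group shows these genes in normal oxygen. Of 3 mouse lines, each gave a group without Cre (flox) and a group with Ncr1 iCre (KO, for knockout), with 3 biological replicates in each group. The genotypes of the flox groups are given as Hif1a fl/fl, Ahr fl/f (so spelled) and the combination of both. The KO genotypes are Ncr1 iCre with Hif1a fl/fl, with Ahr fl/fl, or with both. Ncr1 iCre deletes in cells that express Ncr1, the gene of the NK receptor NKp46. No group carried Cre alone, so within a line an effect of Cre and an effect of the deletion cannot be told apart. The labels used here give no age of the mice and do not say whether animals were pooled.

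NK cells answer target cells and the cytokines IL-12, IL-18 and IL-15 with a fast burst of secretion. Interferon gamma (Ifng) activates macrophages and raises antigen presentation, GM-CSF (Csf2) and M-CSF (Csf1) act on myeloid cells, and FLT3 ligand (Flt3l) supports dendritic cells. Lymphotactin (Xcl1) and the CC chemokines Ccl3, Ccl4 and Ccl5 draw dendritic cells and other leukocytes, while IL-10 restrains them. Hif1a encodes the oxygen-regulated subunit of HIF-1, which binds the core motif ACGTG or GCGTG, and Ahr encodes the aryl hydrocarbon receptor, whose core motif is GCGTG.

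The promoters of the members whose KO effects differed between lines, Xcl1, Csf2 and Flt3l, are shown with that of Ccl1, which varied with Xcl1 and Csf2 between libraries. Each run holds 250 bases before and 50 bases after the RefSeq start site on GRCm38.p6, written 5′ to 3′ along the gene, and capitals mark ACGTG or GCGTG on either strand.
Xcl1, chr1:164935473-164935772, minus strand: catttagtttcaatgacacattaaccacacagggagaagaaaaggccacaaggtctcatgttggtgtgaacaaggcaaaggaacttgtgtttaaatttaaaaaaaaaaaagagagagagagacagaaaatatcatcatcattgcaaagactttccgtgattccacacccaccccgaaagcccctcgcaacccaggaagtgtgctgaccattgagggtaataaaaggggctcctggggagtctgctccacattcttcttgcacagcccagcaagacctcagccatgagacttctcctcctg
Csf2, chr11:54249850-54250149, minus strand: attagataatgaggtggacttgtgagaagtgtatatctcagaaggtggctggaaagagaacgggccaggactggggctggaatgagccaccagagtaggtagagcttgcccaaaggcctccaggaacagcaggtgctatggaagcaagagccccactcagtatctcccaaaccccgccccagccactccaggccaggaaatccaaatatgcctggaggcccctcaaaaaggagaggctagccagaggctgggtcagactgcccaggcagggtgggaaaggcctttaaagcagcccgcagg
Flt3l, chr7:45136383-45136682, minus strand: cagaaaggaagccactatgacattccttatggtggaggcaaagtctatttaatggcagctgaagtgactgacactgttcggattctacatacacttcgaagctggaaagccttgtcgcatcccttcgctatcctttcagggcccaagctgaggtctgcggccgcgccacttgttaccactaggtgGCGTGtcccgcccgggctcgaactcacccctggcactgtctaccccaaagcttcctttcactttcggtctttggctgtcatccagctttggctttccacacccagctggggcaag
Ccl1, chr11:82179763-82180062, minus strand: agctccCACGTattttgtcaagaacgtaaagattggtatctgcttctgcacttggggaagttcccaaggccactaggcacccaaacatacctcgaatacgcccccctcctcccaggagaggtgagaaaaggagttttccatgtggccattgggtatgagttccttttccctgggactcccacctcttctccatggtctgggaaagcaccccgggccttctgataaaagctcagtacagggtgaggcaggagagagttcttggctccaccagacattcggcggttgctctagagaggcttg
RefSeq promoters were matched for 7 of the 10 members. GCGTG occurred in 1 of these windows, that of Flt3l, where it begins 65 bases before the start site. ACGTG occurred in that of Ccl1, read from the opposite strand, beginning 244 bases before the start site. Over 32851 promoter windows of the same length, 19.6% held ACGTG and 32.4% held GCGTG on either strand. The AP-1 motif TGANTCA was in none of the 7 windows and in 7.81% of all, and GGAAA, the core of NFAT sites, was in all 7 and in 61.3% of all. These are matches of letters and not measured binding sites.

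Library totals ran from 54420649 to 55732940 estimated counts, and the 10 members held 0.0462% to 0.182% of a library. All values below are counts-per-million scaled with TMM factors (CPM). A gene is called, and described as having risen or fallen, at an adjusted p under 0.05 in edgeR's quasi-likelihood test over 16747 tested genes. Log2 fold changes are KO over flox with their standard errors. In the Hif1a line the transcript level of Hif1a itself rose from 60.3 ± 4.28 CPM without Cre to 179.9 ± 32 with Cre (SD, n = 3). In the Ahr line that of Ahr was 76.5 ± 2.35 CPM without Cre and 92.1 ± 4.4 with Cre (adjusted p = 0.515, edgeR). A count over the whole gene does not check a deletion of part of it. All 12 NK cell markers stood at 1 CPM or more in at least 1 library, with summed levels of 21910.3 to 40419 CPM. Summed markers of T cells (12 genes) ran from 474 to 669.9 CPM and those of neutrophils (6 genes) from 0.0853 to 5.01 CPM.

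Per kilobase of transcript, Xcl1 and Ccl5 led in 5 of the 6 groups, and Csf1 and Il10 came last in all 6. In Hif1a flox cells the levels were 206 ± 45.6 CPM per kilobase for Ccl5, 189 ± 95.8 for Xcl1, 160 ± 15 for Flt3l and 143 ± 25.8 for Ccl4 (SD, n = 3), neighbours within each other's spread. Ccl3 followed at 94.5 ± 17.2, Ifng at 53.9 ± 4.78 and Ccl1 at 44.8 ± 15.3. Csf2 stood at 2.53 ± 0.568, Il10 at 0.104 ± 0.0328 and Csf1 at 0.0635 ± 0.00173 CPM per kilobase. In Hif1a KO cells Xcl1 was first at 1010 ± 363, and in Ahr KO cells Ccl5 was first at 353 ± 85. None of the 9 tested members was called between the 3 flox groups by edgeR, DESeq2 or limma voom, and 0 had an unadjusted p under 0.05. Among all genes 0.245% were called in that comparison. Ahr itself was among them, at 31.6 ± 6.7 CPM in Hif1a flox, 76.5 ± 2.35 in Ahr flox and 66.3 ± 13.1 in Hif1a Ahr flox cells (SD, n = 3; adjusted p = 0.0326, edgeR), and its part in the differences between lines was not tested.

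**Figure D1:**
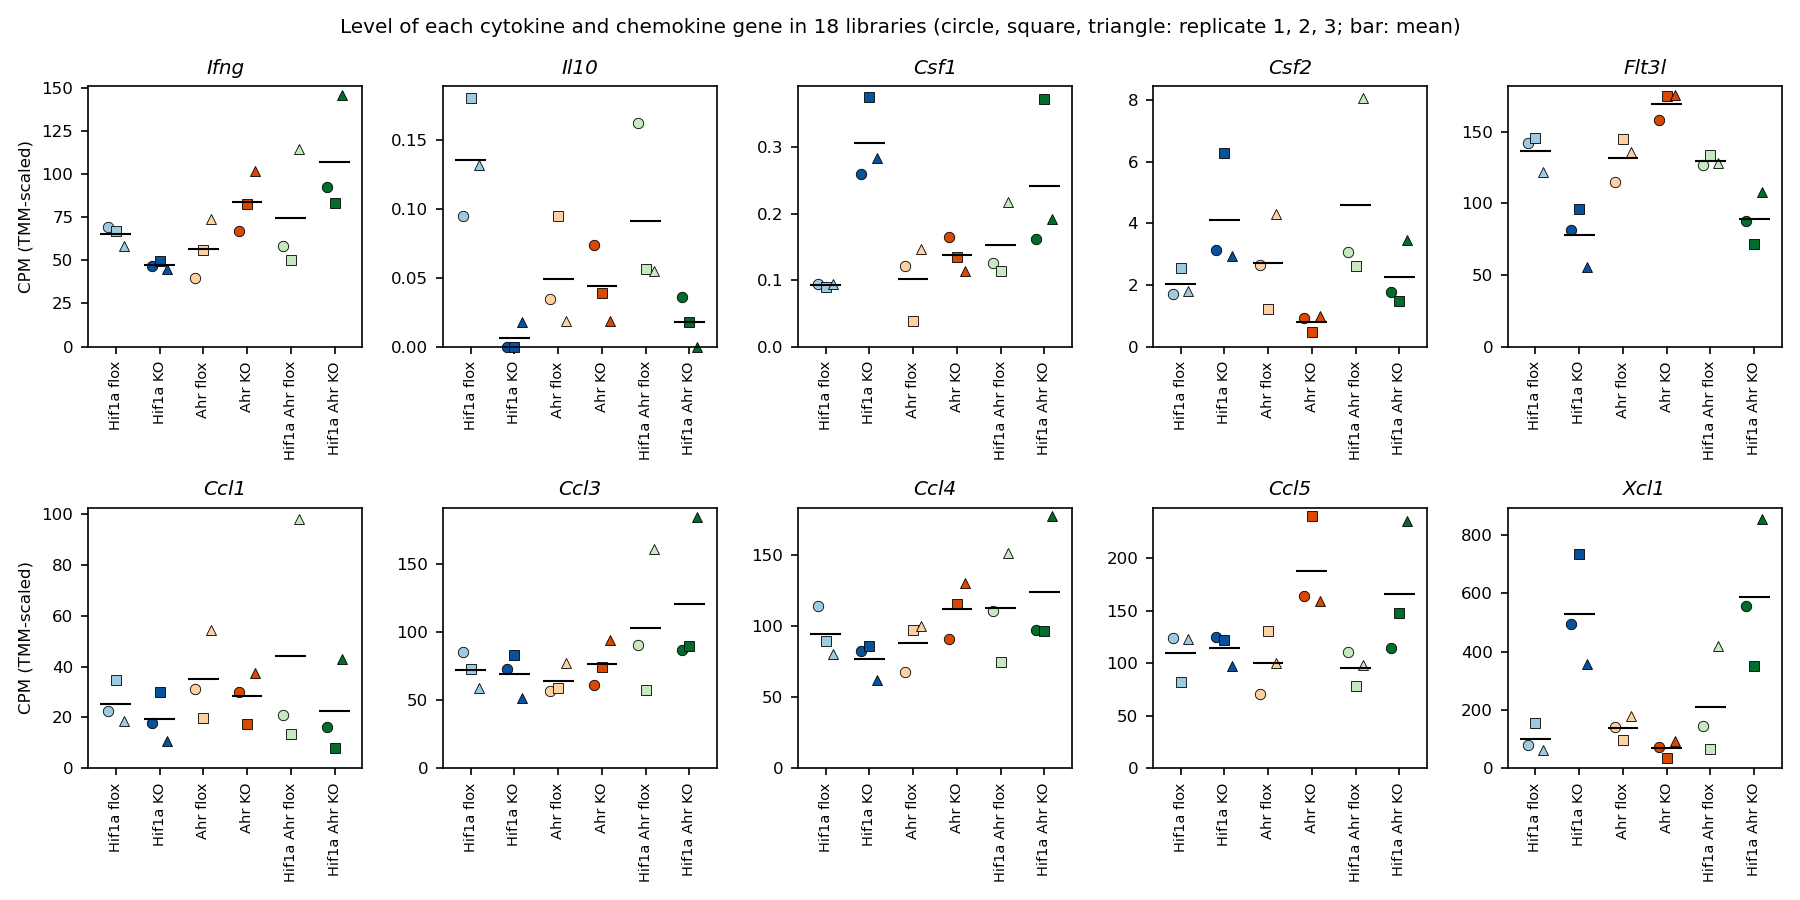
CPM of each of the 10 genes (y axis, linear, a separate scale per gene) in the 6 groups (x axis); circles, squares and triangles are replicates 1, 2 and 3, and bars are group means. Xcl1 stands at 359 to 734 CPM in Hif1a KO and 62.1 to 156 in Hif1a flox cells, and the triangle of the Hif1a Ahr line is high for Ifng, Csf2, Ccl1, Ccl3, Ccl4 and Xcl1.

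Of the chemokines, Xcl1, which binds XCR1 on cross-presenting dendritic cells, moved most. Its CPM was 78.8, 156 and 62.1 in the Hif1a flox libraries (replicates 1, 2 and 3) and 496, 734 and 359 in the Hif1a KO libraries. Every KO library lay above every flox library, and Xcl1 rose by 2.42 ± 0.66 on the log2 scale (adjusted p = 0.0117, edgeR). Leaving out Hif1a flox replicate 1 (2.28; adjusted p = 0.0502) or replicate 3 (2.17; adjusted p = 0.0529) ended the call. The Ahr line had Xcl1 at 140, 97.4 and 179 CPM in flox and 73.5, 35.1 and 93.9 in KO libraries. All 3 KO values were below the flox values, at a log2 change of -1.04 ± 0.63 that was not called (adjusted p = 0.4, edgeR) but was called with same-numbered replicates as pairs (-1.11 ± 0.26; adjusted p = 0.03). For the Hif1a Ahr line the flox libraries stood at 146, 65.2 and 419.8 CPM and the KO libraries at 558, 349 and 854. These groups overlapped, and the log2 change of 1.48 ± 0.63 was not called (adjusted p = 0.0975, edgeR). Over the alternatives its adjusted p ran from 0.00158 to 0.283. The lowest came from edgeR with the replicate number as a block, although the numbers of this line failed the rule for pairs given below. Without Hif1a Ahr flox replicate 3 the log2 change was 2.47 ± 0.62 (adjusted p = 0.0108), and without replicate 3 of both groups 2.10 ± 0.62 (adjusted p = 0.033). By mean, Xcl1 was highest in Hif1a Ahr KO and Hif1a KO cells and lowest in Ahr KO cells, but each neighbouring pair of groups in that order overlapped.

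The KO effect on Xcl1 differed between the Hif1a and the Ahr line by 3.46 ± 0.91 (log2; adjusted p = 0.0108, edgeR). The difference was called under each of 18 alternatives, with adjusted p from 0.00023 to 0.031. Between the Hif1a Ahr and the Ahr line it was 2.52 ± 0.90 and not called (adjusted p = 0.0767), while 5 of 19 alternatives called it, among them DESeq2 (0.0231), limma voom (0.0446), the fit without Hif1a Ahr flox replicate 3 (3.51; 0.0102) and that without replicate 3 of both groups (0.0239). The 3 genes whose log2 CPM followed Xcl1 most closely over the 18 libraries, among 11835 genes of at least 1 CPM, were Crtam (Pearson r 0.975), Lrig3 (0.973) and Htra2 (0.972). These correlations contain the group differences and shared library effects.

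Ccl1, a ligand of CCR8, varied most between replicates. Its CPM was 22.4, 34.9 and 18.4 in Hif1a flox and 17.9, 29.8 and 10.6 in Hif1a KO libraries. Ahr flox libraries had 31.1, 19.8 and 54.5 CPM and Ahr KO libraries 30.1, 17.3 and 37.4. Hif1a Ahr flox libraries had 21, 13.5 and 98.2 CPM and Hif1a Ahr KO libraries 16.2, 7.94 and 43. Flox and KO values overlapped in each line, and edgeR called none of the changes, which were -0.38 ± 0.77 for Hif1a, -0.31 ± 0.76 for Ahr and -0.98 ± 0.77 for both genes (adjusted p = 0.749, 0.88 and 0.374). In the 6 pairs of the Hif1a and Ahr lines the KO library was the lower, with KO to flox ratios from 0.576 to 0.967. The sign of the change was positive without Ahr flox replicate 3 (0.15) and without Hif1a Ahr flox replicate 3 (0.37).

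The macrophage inflammatory proteins Ccl3 and Ccl4, which attract myeloid and T cells, were not called in any of the 3 lines with 1 mean per group. For Ccl3 the 95% intervals of the log2 change were -0.87 to 0.74 (Hif1a line), -0.55 to 1.06 (Ahr line) and -0.58 to 1.03 (Hif1a Ahr line). Ccl3 ranged from 51.4 to 85.3 CPM over the Hif1a line, from 56.8 to 94.2 over the Ahr line and from 57.7 to 185 over the Hif1a Ahr line. Its log2 change of -0.06 ± 0.37 in the Hif1a line turned to 0.04 with library totals in place of TMM. Ccl3 stood at 0.25 ± 0.37 in the Ahr line and 0.22 ± 0.37 in the Hif1a Ahr line, with no call (adjusted p = 0.915, 0.784 and 0.703 in the 3 lines, edgeR). Ccl4 ranged from 62.3 to 114 CPM over the Hif1a line, from 67.6 to 130.3 over the Ahr line and from 74.8 to 178 over the Hif1a Ahr line. Its log2 change was -0.30 ± 0.29, 0.35 ± 0.29 and 0.14 ± 0.29 (adjusted p = 0.478, 0.576 and 0.769). With same-numbered replicates as pairs Ccl4 was called lower in Hif1a KO (-0.30 ± 0.10; adjusted p = 0.0281) and higher in Ahr KO cells (0.35 ± 0.10; adjusted p = 0.03).

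Ccl5, also called RANTES, stood at 70.5, 131 and 100.2 CPM in the flox libraries of the Ahr line and at 164, 239.8 and 159 in its KO libraries. The groups did not overlap, and the log2 change of 0.90 ± 0.29 missed the threshold in edgeR (adjusted p = 0.088) while DESeq2 called it (adjusted p = 0.0307). Hif1a Ahr flox libraries had 111, 77.8 and 98.5 CPM of Ccl5 and Hif1a Ahr KO libraries 114, 148 and 235, again without overlap. There the change was 0.79 ± 0.29 (adjusted p = 0.0551, edgeR; 0.0285 with DESeq2 and 0.02 without Hif1a Ahr KO replicate 1), and it was 0.45 without Hif1a Ahr KO replicate 3 (adjusted p = 0.272). In the Hif1a line Ccl5 values overlapped, 124, 81.6 and 123 CPM in flox against 125, 122 and 97.1 in KO libraries (0.07 ± 0.29; adjusted p = 0.884).

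Of the cytokines, Flt3l was called in 2 lines. Flt3 ligand is made as a membrane protein and shed, and it is the growth factor of dendritic cell precursors. In the Hif1a line its CPM was 142, 146 and 122 in flox and 81.6, 96 and 55.4 in KO libraries, with no overlap. Flt3l fell by 0.81 ± 0.17 on the log2 scale (adjusted p = 0.0016, edgeR), and the call held without each library in turn. With both genes floxed it was 127, 134 and 128 in flox and 87.4, 71.7 and 108 in KO libraries, again with every KO value the lower. It fell by 0.55 ± 0.17 there (adjusted p = 0.0229, edgeR), a call lost without Hif1a Ahr flox replicate 2 (adjusted p = 0.0643), Hif1a Ahr KO replicate 1 (0.0558) or 2 (0.107), and with no filter on low counts (0.0769). The order turned in the Ahr line, with 115, 145 and 136 CPM in flox and 158, 175 and 176 in KO libraries (0.36 ± 0.17; adjusted p = 0.242, edgeR), a change called with only the 6 libraries of the line fitted (adjusted p = 0.0261).

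The KO effect on Flt3l was lower in the Hif1a line than in the Ahr line by a log2 difference of -1.17 ± 0.24 (adjusted p = 0.00153, edgeR), called under all 18 alternatives. It was also lower in the Hif1a Ahr line than in the Ahr line, at -0.91 ± 0.24 (adjusted p = 0.0174), a difference called under 18 of 19 alternatives and lost with no filter on low counts (0.061). By mean, Flt3l ran from Ahr KO (169.7 CPM) through the 3 flox groups (137, 132 and 129.8) to Hif1a Ahr KO (88.9) and Hif1a KO cells (77.7). The flox groups overlapped with each other and the Hif1a KO group with the Hif1a Ahr KO group. The annotated gene Gm45713 overlaps Flt3l on the same strand (mean 6.58 CPM), so the split of counts between them is uncertain. With both counts summed the log2 change was -0.77 ± 0.15 in the Hif1a line and -0.52 ± 0.15 in the Hif1a Ahr line, both called. Bcor (Pearson r 0.961), Gm45552 (0.955) and Sema6d (0.949) followed Flt3l most closely over the 18 libraries.

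Csf2 encodes GM-CSF, which activates macrophages and granulocytes. It stood at 1.72, 2.54 and 1.8 CPM in Hif1a flox and 3.13, 6.28 and 2.95 in Hif1a KO libraries, with all KO values the higher. The log2 change of 1.03 ± 0.52 was not called (adjusted p = 0.149, edgeR), but was with same-numbered replicates as pairs (0.98 ± 0.16; adjusted p = 0.000316). Libraries of the Ahr line had 2.64, 1.23 and 4.29 CPM in flox and 0.917, 0.464 and 0.996 in KO cells, with all KO values the lower. That change was -1.78 ± 0.57 (adjusted p = 0.0819, edgeR; 0.0202 with DESeq2; 0.0355 without Ahr flox replicate 2, and -1.29 with an adjusted p of 0.309 without its replicate 3) and -1.72 ± 0.19 with the pairs (adjusted p = 0.0000619). Hif1a Ahr flox and KO values overlapped, 3.07, 2.63 and 8.08 CPM against 1.78, 1.49 and 3.46 (-1.03 ± 0.52; adjusted p = 0.151), and the change was -0.34 ± 0.49 without Hif1a Ahr flox replicate 3 (adjusted p = 0.656). The KO effects of the Hif1a and Ahr lines differed by 2.80 ± 0.78 (log2; adjusted p = 0.0127, edgeR), called under all 18 alternatives with adjusted p up to 0.0408. Ahr KO cells had the lowest mean (0.792 CPM) and did not overlap with Hif1a flox cells, the next group at 2.02 CPM, while the other neighbouring groups overlapped. Ramp3 (Pearson r 0.942), Gins2 (0.927) and Cdc6 (0.915) followed Csf2 most closely.

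Ifng, the signature cytokine of NK cells, stood at 69.7, 67 and 58.6 CPM in Hif1a flox and 46.7, 49.4 and 45.3 in Hif1a KO libraries. The groups did not overlap, and the log2 change of -0.47 ± 0.31 was not called (adjusted p = 0.282, edgeR). With same-numbered replicates as pairs it was -0.46 ± 0.08 (adjusted p = 0.000359), and with only the 6 libraries of the line fitted it was also called (adjusted p = 0.00111). Ifng in the Ahr line stood at 39.7, 56.2 and 73.9 CPM in flox and 67.2, 83 and 102 in KO libraries. These overlapped, at a log2 change of 0.57 ± 0.31 (adjusted p = 0.34, edgeR), and 0.60 ± 0.08 with the pairs (adjusted p = 0.000254). With both genes floxed it stood at 58.5, 50.2 and 115 CPM without Cre and 92.5, 83.2 and 146 with Cre. The change was 0.53 ± 0.31 (adjusted p = 0.23), and 0.98 ± 0.27 without Hif1a Ahr flox replicate 3 (adjusted p = 0.0179) but 0.24 ± 0.32 without Hif1a Ahr KO replicate 3 (adjusted p = 0.656) and 0.31 without flox replicate 2 (0.542). The effects of the Hif1a and Ahr lines differed by -1.04 ± 0.44 and were not called apart (adjusted p = 0.0931, edgeR), but were with the pairs (-1.06 ± 0.11; adjusted p = 0.00000682). The same-strand gene Gm49751 overlaps Ifng in the annotation (mean 2.02 CPM).

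**Figure D2:**
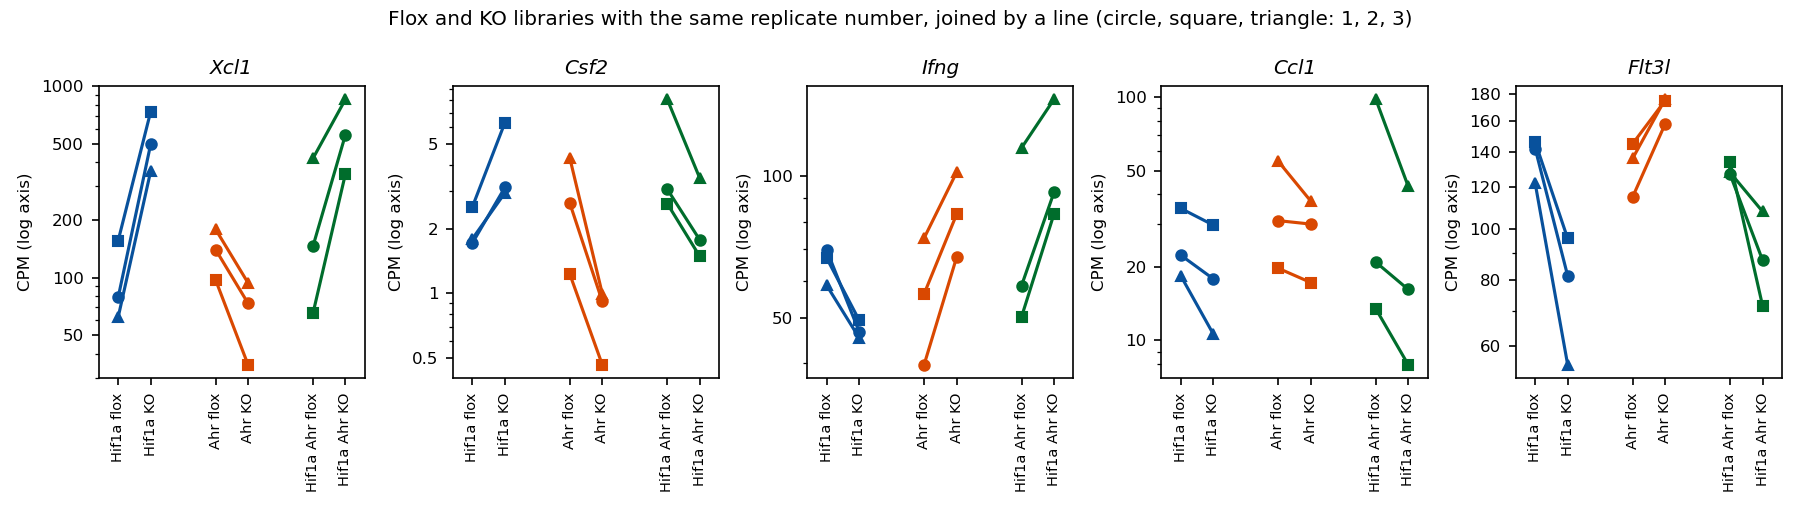
CPM on a log axis (y) of Xcl1, Csf2, Ifng, Ccl1 and Flt3l in flox and KO cells of the 3 lines (x); a line joins the libraries that share a replicate number. The Xcl1 lines climb in the Hif1a line (KO to flox ratios 6.3, 4.71 and 5.78) and descend in the Ahr line (0.524, 0.36 and 0.523), as do those of Csf2 (1.82, 2.47 and 1.64 against 0.347, 0.376 and 0.232).

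Csf1 and Il10 were at the limit of detection. Csf1, the growth factor of macrophages, had 5, 5 and 5 counts in the Hif1a flox and 15, 22 and 16 in the Hif1a KO libraries. It rose from 0.0931 ± 0.00254 to 0.306 ± 0.0612 CPM (SD, n = 3; log2 change 1.69 ± 0.44; adjusted p = 0.00548, edgeR). Csf1 reached the filter level of 0.181 CPM in 6 libraries, and Hif1a KO was the only group with all 3 among them. Csf1 was thus tested because of the libraries in which it was high. It went without a call from 0.101 ± 0.0563 to 0.138 ± 0.0262 CPM between the groups of the Ahr line (adjusted p = 0.706) and from 0.152 ± 0.0577 to 0.242 ± 0.114 between those of the Hif1a Ahr line (adjusted p = 0.251). Summed macrophage and monocyte markers (8 genes, 4 under 1 CPM in all libraries, none at 0 throughout) were 34.3 to 42.9 CPM in the Hif1a line without Cre and 51.8 to 55.7 with Cre. The higher sum came from Cd68, at a mean of 31.4 CPM without and 52.7 with Cre (log2 0.75 ± 0.20, called). The other 3 tested markers fell (Csf1r at -3.24, Lyz2 at -3.26 and Cd14 at -1.89), beside 17.8% of all genes, and Adgre1, C1qa, C1qb and Mrc1 were at or near 0. Their part in the Csf1 result was not tested.

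Il10, an inhibitory cytokine, did not pass the filter. Together the 3 libraries of a group held 22 counts for Hif1a flox against 1 for Hif1a KO, a ratio of 0.0423 (exact 95% interval 0.00103 to 0.262, counting error only). Counts of 8 against 7 in the Ahr line gave a ratio of 0.908 (0.28 to 2.87), and 15 against 3 in the Hif1a Ahr line gave 0.194 (0.0359 to 0.684). With no filter on low counts edgeR gave an adjusted p of 0.00279 for the Hif1a line, 1 for the Ahr line and 0.112 for the Hif1a Ahr line.

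In count, 3 of the 9 tested members were called in the Hif1a line (Csf1 and Xcl1 higher, Flt3l lower), beside 35.4% of all tested genes (17.6% higher, 17.8% lower). Csf1 was tested because of 6 libraries in which it was high, all 3 of Hif1a KO among them. Its call therefore adds no support to this count or to the count with the pairs. Among members that reached the filter level in all libraries of all 6 groups, the calls were those of Xcl1 and Flt3l. Of all genes called there 49.8% were higher, and 65.6% with library totals in place of TMM. With the pairs 6 members were called (Ifng, Ccl4 and Flt3l lower, Csf1, Csf2 and Xcl1 higher), beside 40.7% of all genes. In 5 tested members the groups did not overlap, beside 49.8% of all genes. For the Ahr line edgeR and limma voom called 0 of 9 and DESeq2 called 2. Of all genes edgeR called 6.92% (2.14% higher, 4.78% lower). An unadjusted p under 0.05 was reached by 3 members, a looser threshold at which the share of all genes is not given here. With the pairs the Ahr count was 4 (Ifng and Ccl4 higher, Csf2 and Xcl1 lower), beside 14.5% of all genes. In 4 members the Ahr groups did not overlap, beside 29% of all genes. For the Hif1a Ahr line 1 was called, lower, beside 31.3% of all genes (14.8% higher, 16.5% lower), and 2 did not overlap, beside 37.2%. The median log2 change over the tested members was -0.06 for the Hif1a line, 0.35 for Ahr and 0.22 for both, beside -0.01, 0.00 and -0.02 over all genes.

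**Figure D3:**
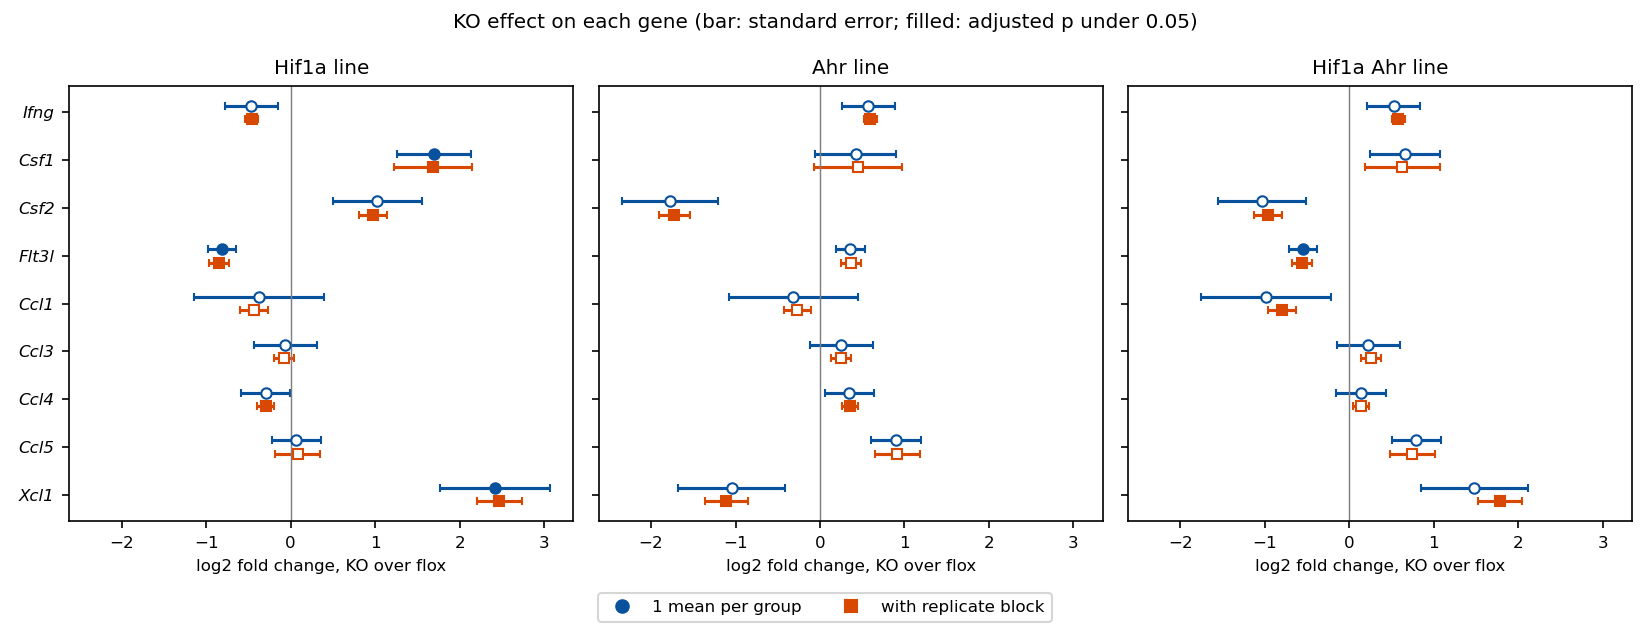
Log2 fold change of KO over flox (x axis) for the 9 tested members (y axis) in the 3 lines; circles come from 1 mean per group and squares from the fit with the replicate number as a block, bars are standard errors and filled symbols have an adjusted p under 0.05. The block gives shorter bars for Ifng, Csf2, Ccl1 and Xcl1 at similar fold changes.

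The difference of KO effects between the Hif1a and Ahr lines was called for 3 of 9 members (Csf2, Flt3l, Xcl1), beside 32.3% of all genes, and for 5 with the pairs (also Ifng and Ccl4), beside 37.8%. Between the Hif1a Ahr and Ahr lines it was called for 1 (Flt3l), beside 16.4%. Between the Hif1a Ahr and Hif1a lines it was called for 0 by edgeR, DESeq2 or limma voom, and edgeR called 9.63% of all genes. An unadjusted p under 0.05 was reached by 2 members (Ifng at 0.99 ± 0.44 and Csf2 at -2.06 ± 0.74). The share of all genes at that looser threshold is not given here. Set against the Hif1a and Ahr effects added together, the Hif1a Ahr KO effect was called different for 0 members by edgeR, DESeq2 or limma voom. For this contrast edgeR called 0.0358% of all genes. At an unadjusted p under 0.05 the number of members was also 0. The standard errors of this contrast ran from 0.29 (Flt3l) to 1.32 (Ccl1) on the log2 scale.

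Apart from the groups, several members varied together from library to library. After removing group means, log2 CPM correlated over the 18 libraries with Pearson r 0.949 for Ccl3 and Ccl4, 0.939 for Ccl1 and Xcl1, 0.925 for Csf2 and Ccl1, 0.892 for Ifng and Ccl4 and 0.888 for Ifng and Ccl3. To Ccl1, Ccl5, Csf1 and Flt3l had r of 0.13, 0.29 and 0.49, but Ccl5 had 0.669 and Flt3l 0.613 to Ccl4, beside 0.509 between Csf2 and Ccl4 and 0.647 between Ifng and Csf2. The points share libraries and pairs of replicates and are given as a description. The within-group SD was 0.947 for Ccl1, 0.787 for Xcl1 and 0.675 for Csf2 on the log2 scale, larger than in 99.7%, 99.4% and 99.1% of 11986 genes of at least 1 CPM, whose median SD was 0.118. Flt3l was the steadiest member at 0.228. Replicate 3 was the highest of 3 in both groups of the Hif1a Ahr line for Ifng, Csf2, Ccl1, Ccl3, Ccl4 and Xcl1. With the group differences kept in, 2 members were among the 3 genes most like Ccl4, which were Cops8 (Pearson r 0.904 over 18 libraries), Ccl3 (0.897) and Ifng (0.896). Those most like Ifng were Abhd17c (0.898), Ccl4 (0.896) and Cops8 (0.89), and those most like Ccl3 were Ccl4 (0.897), Tgfb1 (0.866) and Abhd17c (0.856). Ccl1 was followed by 6430571L13Rik (0.91), Igflr1 (0.909) and Smg9 (0.879), Ccl5 by Aes (0.866), Smim14 (0.83) and Aph1a (0.819), and Csf1 by Rftn2 (0.889), Phospho2 (0.87) and Gbp5 (0.868).

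**Figure D4:**
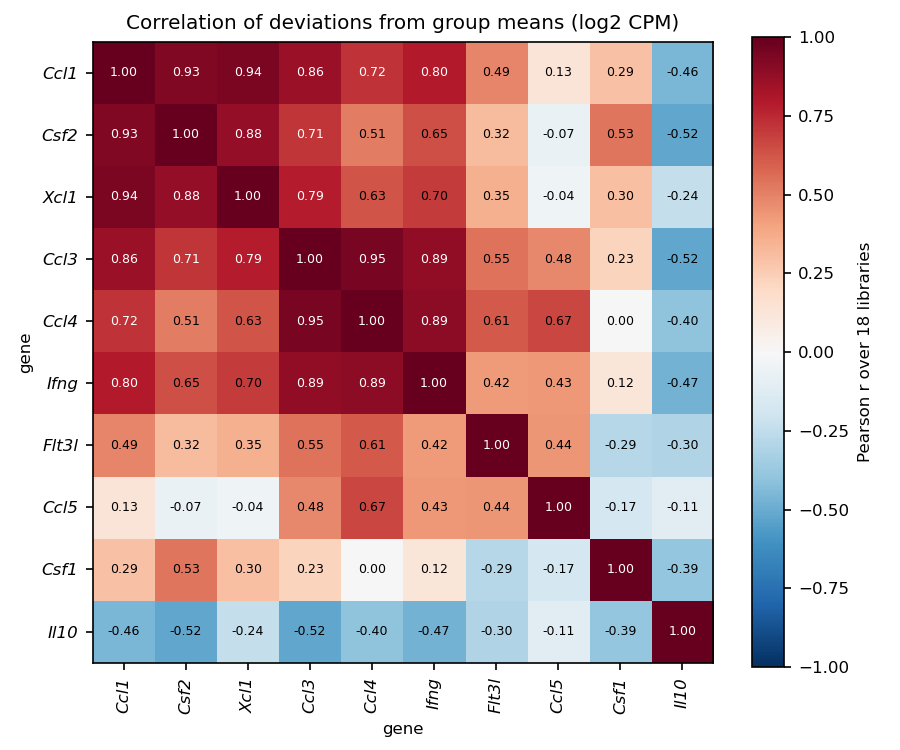
Pearson r over 18 libraries between the deviations of log2 CPM from the group means, for each pair of the 10 genes (both axes). Pairs among Ccl1, Csf2, Xcl1, Ccl3, Ccl4 and Ifng have positive values, as do Ccl5 with Ccl4 (0.669) and Flt3l with Ccl4 (0.613), and Il10, with few counts, has negative values throughout.

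Summed markers of other cell types moved along with some members. The mast cell and basophil list (6 genes, 3 of them under 1 CPM in all libraries, none at 0 throughout) summed to 129.6 to 182 CPM without Cre and 11 to 44.5 with Cre in the Hif1a line. The sums were 98.3 to 125 without and 182 to 226 with Cre in the Ahr line, and 96.7 to 170 without and 49 to 97.1 with Cre in the Hif1a Ahr line. Most of this was the protease gene Mcpt8, at 153 ± 25.1 and 23.5 ± 13.3 CPM in Hif1a flox and KO cells (SD, n = 3), and Cpa3 also fell there (-0.97 ± 0.36). Fcer1a and Ms4a2 of the same list stood at 0.0126 and 0.0123 CPM in Hif1a flox cells. Genes of the list went different ways in the Hif1a Ahr line, where Mcpt8 fell by 1.28 ± 0.39, Cma1 rose from a mean of 2.51 to 18.7 CPM (2.90 ± 0.70) and Cpa3 was not called (0.62 ± 0.34; adjusted p = 0.19, edgeR). The deviations of the list from its group means ran against those of Ccl1 (r -0.721), Csf2 (-0.699), Flt3l (-0.696) and Xcl1 (-0.676). The B cell list (6 genes, 4 under 1 CPM in all libraries) lay between 52.5 and 129 CPM over all groups, nearly all Ighm, and its deviations ran with Ccl1 (r 0.785), Xcl1 (0.752), Csf2 (0.74) and Flt3l (0.661). The summed NK markers ran against Csf2 (r -0.709) and Xcl1 (-0.695) and the T cell markers against Xcl1 (-0.632). Summed dendritic cell markers (6 genes, 4 under 1 CPM in all libraries, mostly Itgax, which NK cells also express) were 190.4 to 233 CPM without Cre and 322 to 390.2 with Cre in the Hif1a line. T cell marker sums were 597 to 669.9 CPM without and 474 to 504 with Cre in the Hif1a line. Of these 12 markers 4 fell there (Cd3g at -3.12, Cd3d at -2.24, Trac at -0.40 and Trbc2 at -0.36) and 0 rose, beside 17.8% and 17.6% of all genes. The sums were 618 to 666 and 582 to 604 CPM in the Hif1a Ahr line. There Cd3g (-3.29) and Cd3d (-2.30) fell and Cd6 (3.38) rose, beside 16.5% and 14.8% of all genes. Over the Ahr line they were 568 to 659 CPM, and Cd3g (-1.50) and Cd3d (-1.06) fell, beside 4.78% of all genes. Neutrophil marker sums were 1.1 to 4.84 CPM without and 0.0853 to 0.138 with Cre in the Hif1a line, where 3 of 4 tested fell, beside 17.8% of all genes. In the Hif1a Ahr line they were 0.91 to 5.01 and 0.157 to 0.359 CPM, and 4 of 4 fell, beside 16.5% of all genes. The part of other cells in these results was not tested. In bulk RNA, fewer cells of a type and less RNA per cell cannot be told apart.

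Of the receptor genes of the members, Ifngr1, Il10ra and Il10rb had the highest CPM, while Ifngr2, the other chain of the interferon gamma receptor, was under 1 CPM in Hif1a flox cells. Ifngr1 stood at 225 ± 32.6 CPM, Il10ra at 114 ± 16.3 and Il10rb at 62.7 ± 2.09 in Hif1a flox cells (SD, n = 3). Csf2ra was lower at 9.72 ± 0.713, and Csf1r (2.59 ± 1.53), Ccr1 (0.455 ± 0.104), Ifngr2 (0.393 ± 0.136), Xcr1 (0.382 ± 0.0535), Csf2rb (0.322 ± 0.0716) and Ccr3 (0.187 ± 0.0415) stood near or under 1 CPM. Flt3 and Ccr8, at 0.0496 ± 0.0103 and 0.0249 ± 0.0112 CPM, did not pass the filter. Of 10 tested receptors 2 rose and 4 fell in the Hif1a line, beside 17.6% and 17.8% of all genes. Il10rb rose by 0.33 ± 0.06 and Ifngr2 by 1.35 ± 0.43, and Il10ra fell by 0.55 ± 0.13, Csf2ra by 0.50 ± 0.11, Csf1r by 3.24 ± 0.72 and Csf2rb by 1.32 ± 0.43. Csf2rb has a near-identical copy in the mouse, so its counts are uncertain. Of the 10, Il10ra alone was called in the Ahr line (0.57 ± 0.13; adjusted p = 0.0117), beside 6.92% of all genes, and 2 were with the pairs (also Ifngr1, adjusted p = 0.00773), beside 14.5%. For the Hif1a Ahr line Ifngr1 (0.58 ± 0.14) and Il10rb (0.43 ± 0.06) rose and Xcr1 (-3.40 ± 0.48), Csf1r (-2.40 ± 0.69) and Ccr3 (-1.24 ± 0.46) fell, beside 14.8% and 16.5% of all genes.

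Among other secreted cytokines, 12 of 28 listed genes were tested and 5 rose and 2 fell in the Hif1a line (17.6% and 17.8% of all genes). The angiogenic factor gene Vegfa fell from 263 ± 49.9 to 30.2 ± 4.07 CPM and the macrophage migration inhibitory factor gene Mif from 599 ± 20.1 to 108 ± 5.36 (SD, n = 3). The interleukin 6 family gene Lif rose from 2.82 ± 0.502 to 11.8 ± 1.03 CPM and Il18 from 0.329 ± 0.0849 to 1.95 ± 0.292. Lif alone of the 12 was called in the Ahr line, from 1.45 ± 0.0743 to 3.14 ± 0.236 CPM. Of the 12, 4 rose and 2 fell in the Hif1a Ahr line (14.8% and 16.5% of all genes), with Lif at 4.08 ± 1.19 and 35.1 ± 3.62 CPM. The median over the list was 0.31, 0.05 and 0.17 in the 3 lines. Of 12 tested other chemokines 1 rose and 3 fell in the Hif1a line, beside 17.6% and 17.8% of all genes. The largest call was the fall of Cxcl16 by 2.97 ± 0.53 at a level under 1 CPM. The fractalkine gene Cx3cl1 fell from 1.55 ± 0.326 to 0.399 ± 0.037 CPM. Adjusted p for these 12 ran from 0.543 to 0.991 in the Ahr line. In the Hif1a Ahr line 1 rose and 2 fell, beside 14.8% and 16.5% of all genes.

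Receptors and signal carriers that act upstream of NK cytokines were called in both directions, 9 higher and 7 lower of 28 in the Hif1a line, beside 17.6% higher and 17.8% lower of all genes. Stat4, the carrier of the IL-12 signal, rose from 131 ± 2 to 205 ± 5.39 CPM, the kinase gene Syk from 32.1 ± 4.14 to 55.5 ± 4.76 and Ncr1 from 121 ± 8.93 to 229 ± 25.5, while the kinase gene Zap70 fell from 178 ± 11.7 to 104 ± 5.07 (SD, n = 3). Of the 28, 1 rose (Ncr1) and 5 fell in the Ahr line, beside 2.14% and 4.78%, and with the pairs 5 rose and 8 fell, beside 14.5% called in all. Ncr1, for which the Ncr1 iCre is named, rose in all 3 lines (0.92 ± 0.10, 0.97 ± 0.10 and 1.06 ± 0.10). Every KO group and no flox group carried this Cre, so its effect on Ncr1 and that of the deletions cannot be told apart. The IL-12 receptor gene Il12rb2 fell from 450.2 ± 151 to 139 ± 26.9 CPM in Ahr KO cells (adjusted p = 0.00726), Il12rb1 fell by 0.65 ± 0.06 and Stat4 by 0.31 ± 0.06. In the Hif1a line Il12rb2 rose from 336 ± 77.3 to 729 ± 200.4 CPM (adjusted p = 0.015). The Hif1a Ahr line had 9 higher and 5 lower, beside 14.8% and 16.5%, with Il12rb1 (-0.96 ± 0.07), Zap70 (-0.86 ± 0.08), Fcgr3 (-0.91 ± 0.09) and Ncr1 (1.06 ± 0.10) called with the smallest p.

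Interferon gamma feedback genes, which interferon gamma induces in the cells that receive it, rose in 14 of 19 tested members in the Hif1a line and the other 5 were not called, beside 17.6% of all genes called higher. Their median log2 change was 0.52, beside -0.01 over all genes. The guanylate-binding protein genes Gbp6 and Gbp5 rose from 23.8 ± 2.46 to 63.2 ± 7.5 and from 14.2 ± 0.379 to 27.4 ± 1.82 CPM (SD, n = 3). The antigen-processing genes Psmb9 and Tap1 rose by 0.50 ± 0.07 and 0.46 ± 0.06. In the same cells Ifng itself had a log2 change of -0.47 ± 0.31. Type I interferon also induces these genes, as background. Of the 19, in the Ahr line 1 rose (Gbp4, 0.53 ± 0.10) and 1 fell (Ciita, -1.28 ± 0.35), beside 2.14% and 4.78% of all genes, with a median of 0.00. With the pairs 1 rose and 3 fell there, beside 14.5% of all genes called in either direction. Among the 10 that rose in the Hif1a Ahr line, where 1 fell (14.8% and 16.5% of all genes), were the class I regulator Nlrc5 (1.01 ± 0.11), Tap1 (0.48 ± 0.06), Gbp6 (1.07 ± 0.16) and H2-D1 (0.41 ± 0.07). Guanylate-binding protein and class I genes have close paralogs, which leaves the split of their counts uncertain.

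**Figure D5:**
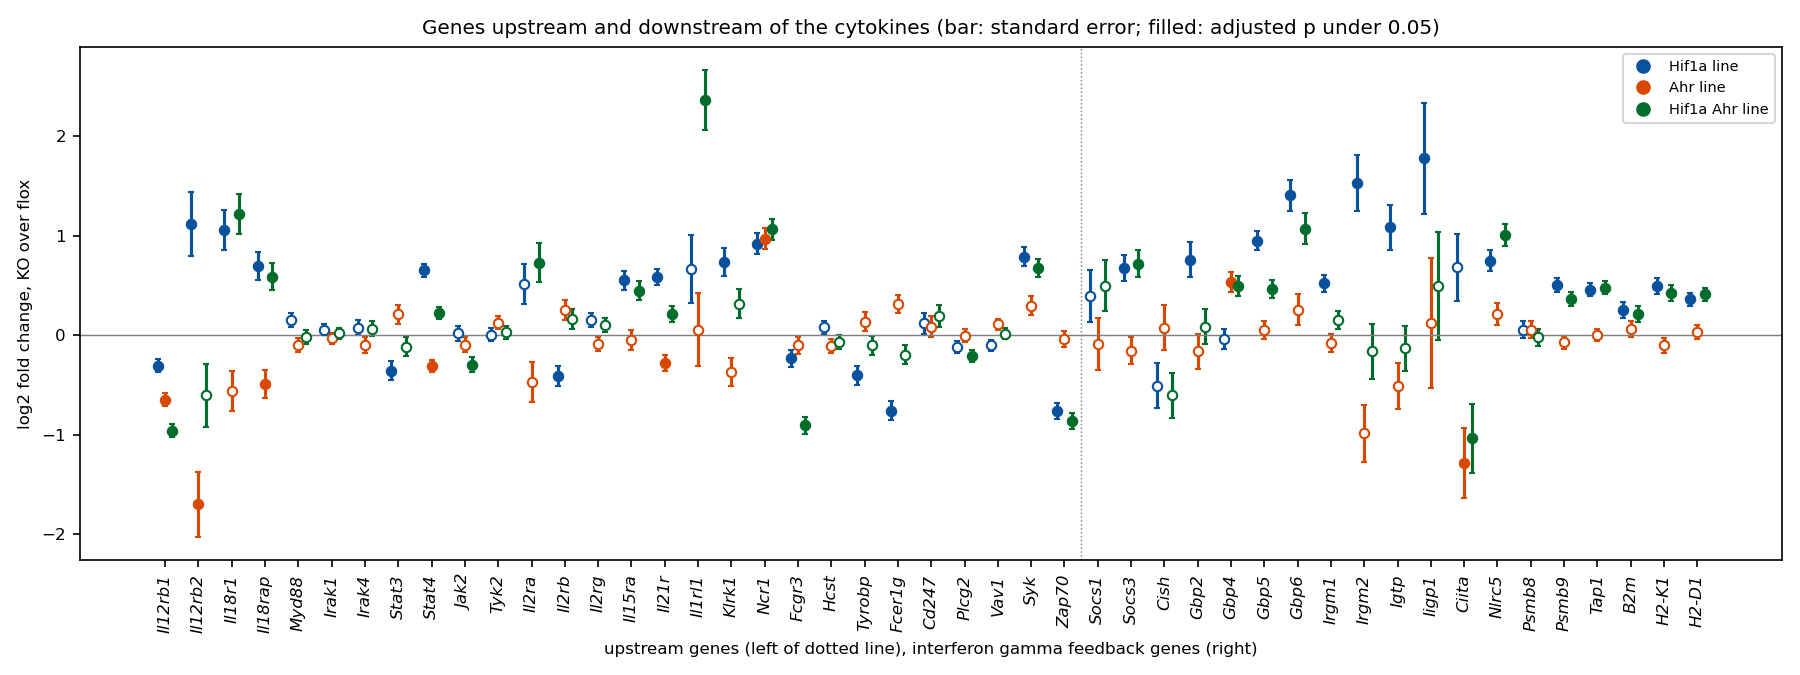
Log2 fold change of KO over flox (y axis) for the 28 upstream genes (left of the dotted line) and 19 interferon gamma feedback genes (right), by line; bars are standard errors and filled points have an adjusted p under 0.05. Il12rb2 points lie at 1.12 in the Hif1a line and -1.70 in the Ahr line, and most feedback genes of the Hif1a line lie above 0.

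Transcription factors known at NK cytokine genes were called in both directions, 9 higher and 10 lower of 34 in the Hif1a line, shares of the list read beside 17.6% and 17.8% of all genes. Bhlhe40, which sustains Ifng expression in lymphocytes, fell from 658 ± 75.5 to 340.1 ± 18.1 CPM, Nfil3 from 251 ± 26.4 to 112 ± 20.5 and Prdm1 from 105 ± 14.9 to 43.2 ± 7.65, while Zeb2 rose from 16.3 ± 2.23 to 29.4 ± 1.94 (SD, n = 3). Of the 34, in the Ahr line 3 rose and 2 fell (2.14% and 4.78% of all genes), and with the pairs 10 and 5 (14.5% in all). The activator of Il10 and other cytokine genes, Maf, fell from 10.6 ± 1.54 to 5.12 ± 0.677 CPM, Ets1 fell by 0.33 ± 0.08, and Eomes and Fosl2 rose by 0.75 ± 0.16 and 0.60 ± 0.16. Of the 34, 9 rose and 9 fell in the Hif1a Ahr line (14.8% and 16.5% of all genes), led by Nfkb1 (0.91 ± 0.08), Zeb2 (0.92 ± 0.10), Ets1 (-0.48 ± 0.08) and Maf (-0.79 ± 0.14).

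The list of factors that stabilise or destroy cytokine mRNA also holds Tnfaip3, which acts on NF-kB signalling. Of its 15 genes 8 were called in the Hif1a line, 5 higher and 3 lower, beside 35.4% of all genes. Arid5a, which stabilises cytokine transcripts, rose from 62.5 ± 1.33 to 116 ± 0.899 CPM, and the decay factor gene Zfp36l1 from 61.7 ± 2.44 to 109 ± 10.9 (SD, n = 3). Zc3h12d rose by 0.85 ± 0.16, and the NF-kB inhibitor gene Tnfaip3 fell from 145 ± 13.9 to 78.7 ± 0.562 CPM. These same 4 genes, the only ones called in the Ahr line, went in the opposite direction: Arid5a (-0.27 ± 0.06), Zfp36l1 (-0.54 ± 0.09) and Zc3h12d (-0.77 ± 0.17) fell and Tnfaip3 (0.31 ± 0.09) rose. Over all genes 6.92% were called there. With the pairs 3 of the 15 rose and 4 fell, beside 14.5% of all genes. The Hif1a Ahr line had 5 that rose and 2 that fell, beside 31.3% called in all, with Arid5a at 0.84 ± 0.06. Of 5 tested genes for the shedding of membrane Flt3l and Csf1, Adam10 rose (0.26 ± 0.06) and Adam17 (-0.33 ± 0.06) and Rhbdf2 (-0.38 ± 0.10) fell in the Hif1a line. Of all genes 17.6% rose and 17.8% fell there. The log2 changes of the 5 shedding genes in the Ahr line ran from -0.14 to 0.18 (adjusted p from 0.124 to 0.927, edgeR). Adam10 rose by 0.22 ± 0.06 in the Hif1a Ahr line, where Adam17 (-0.41 ± 0.06) and Rhbdf1 (-1.71 ± 0.39) fell, beside 14.8% and 16.5% of all genes.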

How the data were processed

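RNA libraries of 18 NK cell cultures were made with a strand-specific mRNA protocol for DNBSEQ, per the labels. Per the submitters' processing notes the authors used Trim Galore 0.6.4, kallisto 0.4.6, edgeR 3.17 and GRCm39; their settings and transcript annotation are not given in the sources used here. The deposited estimated counts per gene are not normalised, and 65.5% to 67.8% of values above 0 are not whole. The authors' second kind of file, deposited as CPM, holds log2 CPM values; they differed by 0 from log2 CPM values computed here with a prior count of 2, and served only as a check.

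Tests ran in R 4.3.3 with edgeR 4.0.16 on the deposited counts, rounded to whole numbers for DESeq2 1.42.0 only: TMM scaling (factors 0.941 to 1.06), filterByExpr by group, all 18 libraries fitted with 1 mean for each group, quasi-likelihood F tests with robust dispersions (2-sided, 12 residual degrees of freedom, biological coefficient of variation 0.117) and Benjamini-Hochberg adjustment over 16747 genes within each comparison. Alternatives were other scalings, no filter, DESeq2, limma 3.58.1 voom, the compared libraries alone, the replicate number as a block, and leaving out each library. The main edgeR fit of KO against flox was run on simulated counts, drawn independently for each library at the dispersion typical of a gene's level. The other fits, the differences of effects and the wider spread of members such as Ccl1 and Xcl1 were not simulated. Counts of 2 libraries of a group differed by 14.6 to 60.1 times counting error (chi-square per degree of freedom), so replicate spread sets the precision except for Csf1 and Il10.

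Same-numbered flox and KO libraries were taken as pairs where each pair's deviations from the group means correlated above 0.1 over genes of at least 5 CPM. The rule was met by all pairs of Hif1a (0.296 to 0.53) and of Ahr libraries (0.333 to 0.534), as a relation in the data that the labels do not state, and failed in the Hif1a Ahr line (0.067 in replicate 1). The fit with the replicate block still held the numbers of all 3 lines together, with 6 residual degrees of freedom. Levels per kilobase used the median length of protein-coding GENCODE M21 transcripts, and overlaps of genes came from the same annotation. Promoters came from RefSeq (GRCm38.p6), a build other than that of the counts. All 10 members are reported whatever their values; of each further list up to 4 called genes with the smallest adjusted p per comparison are named, and the listed receptors of the members whatever their values. Further genes of these lists are not reported here and not counted. The members and lists were chosen with earlier results of these data known.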

Additional observations from a re-analysis of the deposited data

Results flagged for a closer look

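Some KO effects differed between lines by a test of the difference itself (edgeR, adjusted over all genes). For Xcl1 the Hif1a minus Ahr difference was 3.46 on the log2 scale, with KO above flox in 3 of 3 same-numbered pairs of the Hif1a line and below in 3 of 3 of the Ahr line. For Csf2 it was 2.80, with the same split of 3 of 3 pairs up and 3 of 3 down. For Flt3l it was -1.17, with all 3 pairs down in the Hif1a line and all 3 up in the Ahr line. Flt3l also differed between the Hif1a Ahr and the Ahr line, by -0.91, with all 3 Hif1a Ahr KO libraries (71.7 to 108 CPM) below all 3 Hif1a Ahr flox libraries (127 to 134 CPM). Their causes were not tested.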

How the results depend on the processing

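Of the members' KO effects 6 turned sign, under 10 settings in all, none of them called. Of 27 differences of effects between lines 10 turned sign under some alternative, 0 of them called; without Hif1a Ahr flox replicate 3, Hif1a Ahr minus Hif1a went from -0.61 to 0.75 for Ccl1 and from -0.94 to 0.051 for Xcl1. Leaving out 1 library moved Ccl1 between -0.60 and 0.15 in the Ahr line (positive without Ahr flox replicate 3) and between -1.87 and 0.37 in the Hif1a Ahr line (positive without its flox replicate 3). Ccl3 ran from -0.22 to 0.11 in the Hif1a line (positive without flox replicate 1, at 0.072, or KO replicate 3, and with library totals, at 0.041), and Ccl5 from -0.11 (without flox replicate 2) to 0.17. In the Hif1a Ahr line Ccl3 ran from -0.23 to 0.70 and Ccl4 from -0.22 to 0.42, both negative without flox replicate 2 (-0.064 and -0.085) or KO replicate 3. With the replicate block, members called numbered 6 in the Hif1a, 4 in the Ahr and 5 in the Hif1a Ahr line (Ifng, Csf2, Flt3l, Ccl1 and Xcl1, beside 37.4% of all genes). For differences of effects the block gave 3 for Hif1a Ahr minus Hif1a (beside 18.9% of all genes), 3 for Hif1a Ahr minus Ahr (22.8%), 0 for the double effect against the sum (0.209%) and 5 for Hif1a minus Ahr, and it called 2423 genes in the Ahr line against 1159. In the Hif1a Ahr line numbers failed the rule for pairs. Each KO library there correlated best with the flox library of its own number, but in replicate 1 only at 0.067 against up to 0.031. For replicate 1 the flox library did not in turn correlate best with the KO library of its number. All 3 lines were nevertheless blocked in the same fit, with 6 residual degrees of freedom. Values with the pairs in the Hif1a and Ahr lines therefore share a spread estimate that includes the Hif1a Ahr line. The block was not run for the flox groups, whose level it absorbs, nor the compared libraries alone for differences of effects. Over the alternatives all genes called ran from 4787 to 6814 in the Hif1a line, 467 to 2423 in the Ahr line and 3100 to 6256 in the Hif1a Ahr line. The member counts that follow move with these totals and are not results about the members alone. With only the compared libraries, members called were 5 in the Hif1a and 1 in the Ahr line, and 3100 genes were called in the Hif1a Ahr line against 5245. DESeq2 called 2 members in the Ahr line, 3 in the Hif1a Ahr line and 2 for Hif1a Ahr minus Ahr, where limma voom also called 2. Library totals gave 2 members in the Hif1a Ahr line, and no filter gave 0 there and 0 for Hif1a Ahr minus Ahr. Leaving out 1 library gave 2 to 3 members in the Hif1a line, 0 to 1 in the Ahr line (467 to 1333 genes) and 0 to 3 in the Hif1a Ahr line. It gave 0 to 1 for Hif1a Ahr minus Hif1a (Ifng, without Hif1a Ahr flox replicate 3) and 1 to 2 for Hif1a Ahr minus Ahr. Without replicate 3 of both Hif1a Ahr groups, chosen after seeing the data, 2 members were called in that line and 2 for Hif1a Ahr minus Ahr. The cause of these changes was not tested. Depth limits Csf1 and Il10.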
